A study of Mus musculus with 35 samples.

Results

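The replication-dependent histone genes of the mouse were followed through sorted epithelial cells of back skin, tail skin, palate and tongue. They were taken as every row of the deposited per-library tables whose name begins with Hist1h, Hist2h, Hist3h or Hist4h, leaving out 1 name marked as a pseudogene with -ps, which gave 69 genes. They are 69 of 53715 rows in the back skin tables and 69 of 49585 rows in the tail, palate and tongue tables. The genes encode linker histone H1 (6 genes) and the core histones H2A (20), H2B (18), H3 (12) and H4 (13). On mm10, 56 lie in the Hist1 cluster of chromosome 13, 10 in the Hist2 cluster of chromosome 3, 2 on chromosome 11 and 1 on chromosome 6.

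Every library came from 2-month-old C57BL/6J mice of genotype K5-tTA/pTRE H2B-GFP, so that all groups, controls included, carry a transgene encoding an H2B-GFP fusion. In this pulse-chase design the keratin 5 promoter drives the tetracycline transactivator, doxycycline shuts the H2B-GFP gene off, and dividing cells dilute the label. Label-retaining cells (LRCs), called slow-cycling in the labels, were sorted apart from non-label-retaining cells (nLRCs), called fast-cycling, after 2 weeks of doxycycline for skin or 10 days for oral tissues. The 35 libraries form 13 groups. The 9 groups of 3 libraries cover LRCs and nLRCs of the back skin spinous layer, LRCs and nLRCs of the back skin basal layer, back skin granular cells, back skin bulge cells (hair follicle stem cells), LRCs and nLRCs of the tail skin basal layer, and tail bulge cells. The 4 groups of 2 libraries cover LRCs and nLRCs of the basal layer of palate and of tongue. Whether the libraries of a group stem from different mice is not stated, and a p-value here reflects the scatter among these libraries, which may be technical.

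Replication-dependent histones package newly copied DNA, and most of their genes are transcribed as cells enter S phase, when each new chromosome copy needs histones. Their mRNAs have no intron and, as a rule, no poly(A) tail. They end instead in a short conserved stem-loop that is bound by the stem-loop binding protein Slbp and governs processing, translation and rapid decay of the mRNA when replication stops. Libraries were made with a stranded SMARTer kit for small amounts of total RNA (Pico, version 2), which does not select for poly(A) and so retains such transcripts. Cells had been sorted by flow cytometry after overnight trypsin.

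The stem-loop is shown because it defines the family. The histone stem-loop consensus, with both arms required to pair, was searched on the sense strand of the annotated transcripts (GENCODE on mm10). It was found in transcripts of 44 of the 69 genes, against 56 of 55341 genes in all (0.101%). In the 6 distinct forms below, in DNA letters, capitals mark the stem of 6 bases on each side and lower case the loop of 4 bases.
form in 26 genes, Hist1h2ab and Hist1h2bm among them: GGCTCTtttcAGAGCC
form in 7 genes, Hist1h4d among them: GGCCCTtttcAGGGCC
form in 6 genes, Hist1h3c among them: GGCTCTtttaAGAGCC
form in 2 genes, Hist2h4 among them: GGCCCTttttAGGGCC
form in 2 genes: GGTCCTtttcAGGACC
form in 1 gene: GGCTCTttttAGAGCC
A gene without a match lacks these letters in the annotated transcript only. The annotation lists 64 of the 69 genes with a single exon and 67 as protein coding. Hist1h2aj and Hist1h2al are annotated as pseudogenes.

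Promoters are shown for 1 gene of each class, because the genes of the 5 classes are described together below. The gene chosen had the smallest p in the comparison of spinous LRCs with spinous nLRCs (fit without back bulge library 2), among genes whose printed bases lie outside the annotated gene. The sequences are from RefSeq on GRCm38.p6, cover the 250 bases before the RefSeq start of the gene, and lie at chr13:21780626-21780875 (minus strand, Hist1h1b), chr13:23750838-23751087 (plus strand, Hist1h2ab), chr13:21721794-21722043 (plus strand, Hist1h2bm), chr13:23575513-23575762 (plus strand, Hist1h3d) and chr13:21750554-21750803 (minus strand, Hist1h4k). Capitals mark the 4 motifs described after the sequences, on either strand.
Hist1h1b: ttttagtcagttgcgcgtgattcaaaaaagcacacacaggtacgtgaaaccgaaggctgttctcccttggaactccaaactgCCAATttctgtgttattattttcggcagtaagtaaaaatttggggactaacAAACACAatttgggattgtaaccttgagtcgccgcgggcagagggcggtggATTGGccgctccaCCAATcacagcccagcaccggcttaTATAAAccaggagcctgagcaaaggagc
Hist1h2ab: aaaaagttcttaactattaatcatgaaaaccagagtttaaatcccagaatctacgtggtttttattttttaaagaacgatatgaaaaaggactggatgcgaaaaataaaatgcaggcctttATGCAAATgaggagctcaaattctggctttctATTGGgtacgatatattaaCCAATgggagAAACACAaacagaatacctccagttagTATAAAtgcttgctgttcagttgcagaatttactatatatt
Hist1h2bm: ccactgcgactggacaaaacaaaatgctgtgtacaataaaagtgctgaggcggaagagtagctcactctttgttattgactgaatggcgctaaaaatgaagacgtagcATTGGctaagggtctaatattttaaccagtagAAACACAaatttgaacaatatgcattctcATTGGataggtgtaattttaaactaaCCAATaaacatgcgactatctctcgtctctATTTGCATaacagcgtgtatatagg
Hist1h3d: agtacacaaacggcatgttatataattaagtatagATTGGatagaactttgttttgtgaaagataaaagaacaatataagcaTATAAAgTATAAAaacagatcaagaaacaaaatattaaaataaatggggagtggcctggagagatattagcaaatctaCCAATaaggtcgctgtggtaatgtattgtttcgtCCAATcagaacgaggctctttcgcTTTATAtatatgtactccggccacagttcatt
Hist1h4k: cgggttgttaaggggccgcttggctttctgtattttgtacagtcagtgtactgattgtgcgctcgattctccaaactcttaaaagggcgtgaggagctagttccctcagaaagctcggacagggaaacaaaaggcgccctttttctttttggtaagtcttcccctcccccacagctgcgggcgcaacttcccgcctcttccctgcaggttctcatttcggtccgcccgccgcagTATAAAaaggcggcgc
In windows of 300 bases that also include the first 50 bases after the start, found for 61 of the 69 genes, the letters CCAAT or their reverse complement stood in 52 windows (85.2%), against 37.4% of all 32851 RefSeq windows. All 6 H1, 17 H2A, 16 H2B and 10 H3 windows held CCAAT, and 3 of 12 H4 windows did. The letters TATAAA stood in 35 windows (57.4%), against 13.6% of all windows. The octamer ATTTGCAT stood in 13 histone windows (21.3%), 7 of H2A and 6 of H2B genes, against 1.74% of all windows. The letters AAACACA, known from H1 promoters, stood in 9 windows (14.8%), against 7.18% of all windows, and in 5 of the 6 H1 windows. Each motif was counted on both strands, also where it overlapped another. Windows of H2A and H2B genes that stand back to back cover some of the same bases, so the same site can count in both windows. A match describes letters in the window and not a bound site.

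Copies of these genes are close in sequence, so that short reads cannot always be given to 1 gene. Of all 50-base stretches of a histone transcript, a median of 49.7% occurred also in another annotated gene. By class the median was 1.13% for H1, 39.5% for H4, 46.9% for H2B, 62.0% for H3 and 73.2% for H2A. More than 50% was shared for 34 genes and under 10% for 9 genes. No source at hand names the counting tool or says how reads with several positions were treated, so a value for a single H2A, H2B, H3 or H4 gene may include reads of its copies. In addition, 7 genes overlap another gene on the same strand and 23 on the opposite strand, and whether strand was used in counting is not stated. Whether reads of the H2B-GFP transgene entered the H2B counts was not tested.

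Total reads in genes ran between 9785944 and 20560481 in back skin libraries, between 8421582 and 14093720 in tail libraries and between 11680595 and 15641556 in palate and tongue libraries. The tables of back skin and those of tail, palate and tongue list different genes and imply different gene lengths (over 1.5-fold apart for 11 of 60 histone genes), so tests were made within back skin, within tail, within the oral tissues and between oral tissues and tail. Basal markers (Krt5, Krt14, Itga6, Col17a1) were abundant in all basal groups, and Krt1 and Krt10 in spinous and granular groups. The 4 bulge markers (Cd34, Lgr5, Krt15, Lhx2) summed to 2816 to 7145 CPM (counts scaled to library size by edgeR's TMM method) in back bulge cells and 2095 to 4713 CPM in the back basal groups, which overlap, and to 3909 to 4278 CPM in tail bulge cells and 260 to 1986 CPM in the tail basal groups, which do not. In spinous nLRCs, however, Krt1 and Krt10 summed to 1886 to 3651 CPM, close to their sum in the basal groups (1806 to 3098 CPM).

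In all, 3 libraries stood apart. Back bulge library 2 had 15854 genes with a read, against 18061 to 21569 in the other 17 back skin libraries. The gene Gm26917 alone took 24.4% of its reads, against 2.61% to 10.1% in those libraries. Shares of reads and RPM (reads scaled to the library's total of gene reads) are not adjusted for this. The nuclear RNA Malat1 was at 406 RPM in back bulge library 2, against 2465 to 5411 RPM. The signal recognition particle RNA gene Rn7s1 was at 92535 RPM, against 9238 to 38043 RPM. Palate nLRC library 2 had 767 RPM of Malat1, against 3027 to 4726 RPM in the other oral libraries. Reads of Zc3h7a, Peak1, Filip1l and Gphn together made up 19.8% of that library. They made up 9.39% to 14.7% of the other oral libraries and 12.1% to 18.6% of tail libraries. Shares of reads and RPM are not adjusted for this either. Tail bulge library 3 had the lowest depth of the series. Results that these libraries touch are given with and without them, a choice made after seeing the data.

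The histone genes took between 0.0640% and 0.732% of reads in 34 of the 35 libraries and 8.13% in back bulge library 2. In back skin the share was 0.135%, 0.193% and 0.216% in spinous LRCs, against 0.419%, 0.732% and 0.564% in spinous nLRCs. The groups did not overlap, with every LRC library below every nLRC library. It was 0.325%, 0.316% and 0.508% in basal LRCs, against 0.428%, 0.489% and 0.486% in basal nLRCs. The basal groups overlapped through LRC library 3. Granular cells had 0.193%, 0.231% and 0.166%, within or close to the range of spinous LRCs. Back bulge libraries 1 and 3 had 0.362% and 0.485%, within the range of the basal groups.

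In tail skin the order of LRCs and nLRCs was the opposite of that in the spinous layer. Tail LRCs had 0.506%, 0.210% and 0.309% of reads in histone genes, against 0.162%, 0.133% and 0.179% in tail nLRCs. All 3 LRC libraries were above all 3 nLRC libraries. Tail bulge cells had 0.149%, 0.143% and 0.0640%, the first and second of these within the range of tail nLRCs. Palate LRCs had 0.148% and 0.153%, against 0.119% and 0.260% in palate nLRCs, so the LRC libraries lay between the nLRC libraries. Tongue LRCs had 0.105% and 0.102%, against 0.130% and 0.127% in tongue nLRCs, with both LRC libraries below both nLRC libraries. In sorted bulk samples fewer cells that make a transcript and less of it per cell cannot be told apart.

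**Figure D1:**
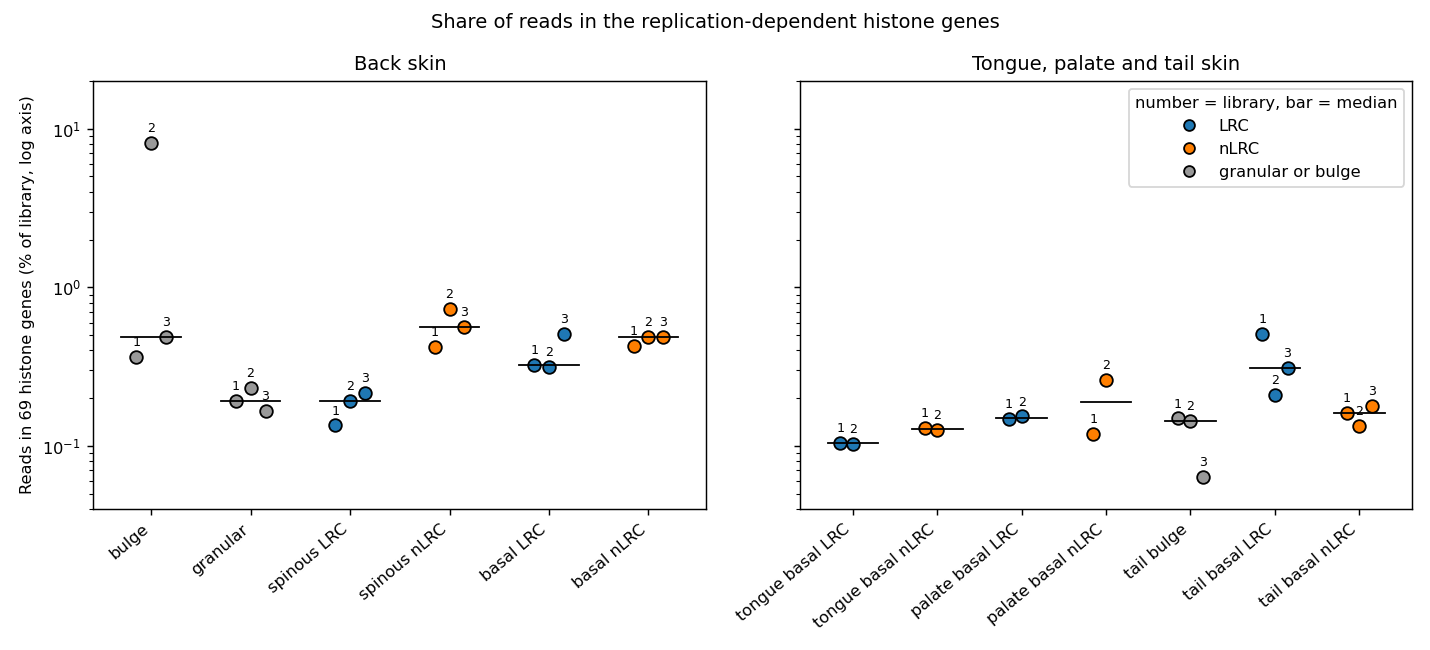
Share of reads in the 69 histone genes (percent of all gene reads, log axis) in each library of back skin (left) and of tongue, palate and tail skin (right); numbers give the library and bars the median of a group. Spinous LRC libraries sit at 0.135 to 0.216% and spinous nLRC libraries at 0.419 to 0.732%, tail LRC libraries sit above tail nLRC libraries, and back bulge library 2 stands alone at 8.13%.

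Per unit of length, the 10 genes with the highest mean over the 35 libraries were Hist2h2aa2, Hist1h4h, Hist1h4n, Hist1h3i, Hist2h3b, Hist1h3h, Hist2h2aa1, Hist1h4a, Hist1h4f and Hist1h2ap. Their means ran between 1830 TPM (length-scaled transcript abundance, as the authors deposited it) for Hist2h2aa2 and 751 TPM for Hist1h2ap. These are genes for H2A, H3 and H4. Without back bulge library 2 the means of Hist2h2aa2 and Hist1h2ap were 1323 and 442 TPM, Hist1h2ap ranked 13 and the H1 gene Hist1h1e came into the first 10, at rank 6. The ranking rests on back skin, where TPM were far higher than in the other tables. Hist2h2aa2, an H2A gene, averaged 3439 TPM over the back skin libraries and 126 TPM over the others, and Hist1h3h, an H3 gene, 1955 and 13.3 TPM. Without that library their back skin means were 2519 and 1124 TPM. In the tables of tail, palate and tongue the H2A gene Hist2h2aa1 ranked highest (602 TPM), followed by the H1 gene Hist1h1e (599 TPM). Hist2h2aa1 and Hist2h2aa2 share 89.4% and 100% of their 50-base stretches with other genes, so either rank may include reads of copies. The processing of these tables differed, so levels are not compared across them.

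Within back skin the median level of the H4 gene Hist1h4h was 1189 TPM in spinous LRCs, against 2371 TPM in spinous nLRCs. Hist1h3i, an H3 gene, was at 504 TPM in spinous LRCs, against 1669 TPM in spinous nLRCs. Hist1h2ap, an H2A gene, was at 256 and 1116 TPM in the same groups. Among the groups of tail, palate and tongue these 3 genes were highest in tail LRCs, with medians of 350, 160 and 508 TPM. Genes of the testis type were close to absent. Reads of Hist1h1t numbered 0 to 18 in a library, of Hist1h2aa 0 to 7 and of Hist1h2ba 0 to 37, leaving out back bulge library 2 with 90, 5 and 192 reads. Hist1h2al was listed at 0 TPM in back skin tables that give it reads, so its TPM is not used.

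The question set by the sort was whether slow-cycling and fast-cycling cells differ. Histone genes of all 5 classes had lower levels in spinous LRCs than in spinous nLRCs. Hist1h4k, an H4 gene, had 14.3, 16.8 and 28.1 CPM in spinous LRCs, against 58.7, 83.3 and 93.5 CPM in spinous nLRCs. Hist1h1b, an H1 gene, had 6.57, 17.1 and 24.3 CPM, against 62.8, 114 and 103 CPM. The H2A gene Hist1h2ab had 4.03, 11.7 and 10.8 CPM, against 39.6, 65.7 and 65.2 CPM. In these 3 genes each LRC library lay below each nLRC library, and LRC library 1 was the lowest.

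The call depended on a library outside this comparison. With all 18 back skin libraries in the fit, edgeR's quasi-likelihood test with Benjamini-Hochberg adjustment called 0 of 66 tested histone genes, with 22 at an unadjusted p under 0.05 and 0 by DESeq2. The median log2 fold change (LRC over nLRC) was −2.03, against −0.01 over all genes, and 58 of 66 genes had every LRC library below every nLRC library, against 21.3% of all genes. Of all genes 8.63% were called lower. That fit holds back bulge library 2, and without it 58 of 66 histone genes were called lower and 0 higher, against 12.2% of all genes called lower. The median was then −1.98, against 0.03 over all genes. Of all genes 19.3% then had every LRC library below every nLRC library, and again 58 histone genes did. Same-numbered libraries deviated together. With the replicate number as a block and all libraries, 0 of 66 histone genes were called, against 20.4% of all genes in either direction. With the block and without back bulge library 2, 60 of 66 histone genes were called, against 33.8% of all genes in either direction. A fit of the 6 spinous libraries alone called 57. The counts at an unadjusted p and by that fit have no share over all genes beside them.

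By class, 5 of 6 H1, 15 of 17 H2A, 16 of 18 H2B, 11 of 12 H3 and 11 of 13 H4 genes fell in spinous LRCs in the fit without back bulge library 2. Linker histones H1 compact the fibre between nucleosomes. Hist1h1b fell by 2.55 on the log2 scale (SE 0.44, adjusted p 0.000567, edgeR) and Hist1h1a by 2.33. Hist1h1d, with 38.3, 60.7 and 58.4 CPM in spinous LRCs and 113, 193 and 180 CPM in spinous nLRCs, fell by 1.62 (SE 0.25, adjusted p 0.000241). These 3 genes share 0% to 2.25% of their 50-base stretches with other genes. Hist1h1e fell by 1.11, and Hist1h1c, which is known to make polyadenylated mRNA as well, by 1.02 (adjusted p 0.0215, edgeR).

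H2A and H2B pair as dimers on the outer part of the nucleosome. Hist1h2ab fell by 2.68 on the log2 scale (SE 0.36, adjusted p 7.52e-05, edgeR). The H2B gene Hist1h2bm had 4.56, 7.96 and 9.26 CPM in spinous LRCs, against 33.7, 58.3 and 44.5 CPM in spinous nLRCs, and fell by 2.65 (SE 0.37, adjusted p 0.000109). Hist1h2be, also H2B, had 14.4, 16.8 and 17.9 CPM, against 32.0, 51.8 and 41.2 CPM, and fell by 1.35. In both H2B genes the groups lay apart, and the 3 LRC libraries of Hist1h2be were close together. Of the most abundant H2A genes, Hist1h2ap fell by 2.44 and Hist2h2aa2 by 0.91. Hist2h2aa1 had a log2 fold change of −0.60 and an adjusted p of 0.123 (edgeR). Hist2h2aa1 and Hist2h2aa2 share 89.4% and 100% of their 50-base stretches with other genes. Their reads numbered 598 and 1 in tail bulge library 3 and 1116 and 1077 in tail bulge library 2. They are therefore not contrasted as separate genes. Hist1h2ba, the testis-type H2B gene, had 0.195, 0.617 and 0.823 CPM, against 1.89, 2.33 and 2.32 CPM, and was called lower at these few reads (adjusted p 0.0287, edgeR).

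H3 and H4 form the tetramer at the centre of the nucleosome. Hist1h4k fell by 1.99 on the log2 scale (SE 0.26, adjusted p 6.95e-05, edgeR), the smallest p among the histone genes. The H3 gene Hist1h3c had 5.40, 9.26 and 17.4 CPM in spinous LRCs, against 42.1, 74.3 and 72.3 CPM in spinous nLRCs, and fell by 2.56 (SE 0.35, adjusted p 0.000101). Hist1h3d fell by 2.27, and the abundant H3 genes Hist1h3i, Hist2h3b and Hist1h3h by 2.18, 1.99 and 2.44. The abundant H4 genes Hist1h4h, Hist1h4n, Hist1h4a and Hist1h4f fell by 1.12, 1.66, 1.73 and 1.72. Reads of H4 genes made up a mean of 30.7% of all histone reads in spinous LRCs and 25.4% in spinous nLRCs, and reads of H3 genes 14.6% and 22.2%.

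In all, 8 of the 66 genes did not pass the test without back bulge library 2. They were Hist1h1t, Hist1h2br, Hist2h2aa1, Hist2h2be, Hist2h3c1, Hist2h4, Hist3h2a and Hist4h4. Hist1h2br has 88.7% of its 50-base stretches in common with Hist1h2bq, so its reads may not be separable from those of that copy. Hist2h2be, a replication-dependent H2B gene known to be polyadenylated in differentiated cells, had 5.08, 2.95 and 3.43 CPM in spinous LRCs, against 4.53, 6.60 and 4.46 CPM in spinous nLRCs. Hist2h4, an H4 gene, had 68.3, 87.5 and 97.5 CPM, against 64.8, 91.1 and 122 CPM. In both the groups overlapped. Their log2 fold changes were −0.44 (SE 0.30) and −0.13 (SE 0.22). Hist2h2be shares none of its 50-base stretches with another gene and Hist2h4 few. Among genes that share under 10%, 4 of 8 tested fell, and among those that share over 50%, 29 of 32 fell. The third gene of the polyadenylating group, Hist1h2bc, fell by 1.33 (adjusted p 0.00566, edgeR), with 26.7, 45.5 and 36.1 CPM, against 70.2, 125 and 76.8 CPM. Hist2h3c1, an H3 gene with a stem-loop, had 35, 47 and 26 unscaled reads in spinous LRCs, against 31, 28 and 25 in spinous nLRCs. Hist2h3c1 shares 100% of its 50-base stretches with another gene, so its reads may include those of that gene. The genes without a call were thus not only those named here as polyadenylating. Whether the others make polyadenylated mRNA was not tested.

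**Figure D2:**
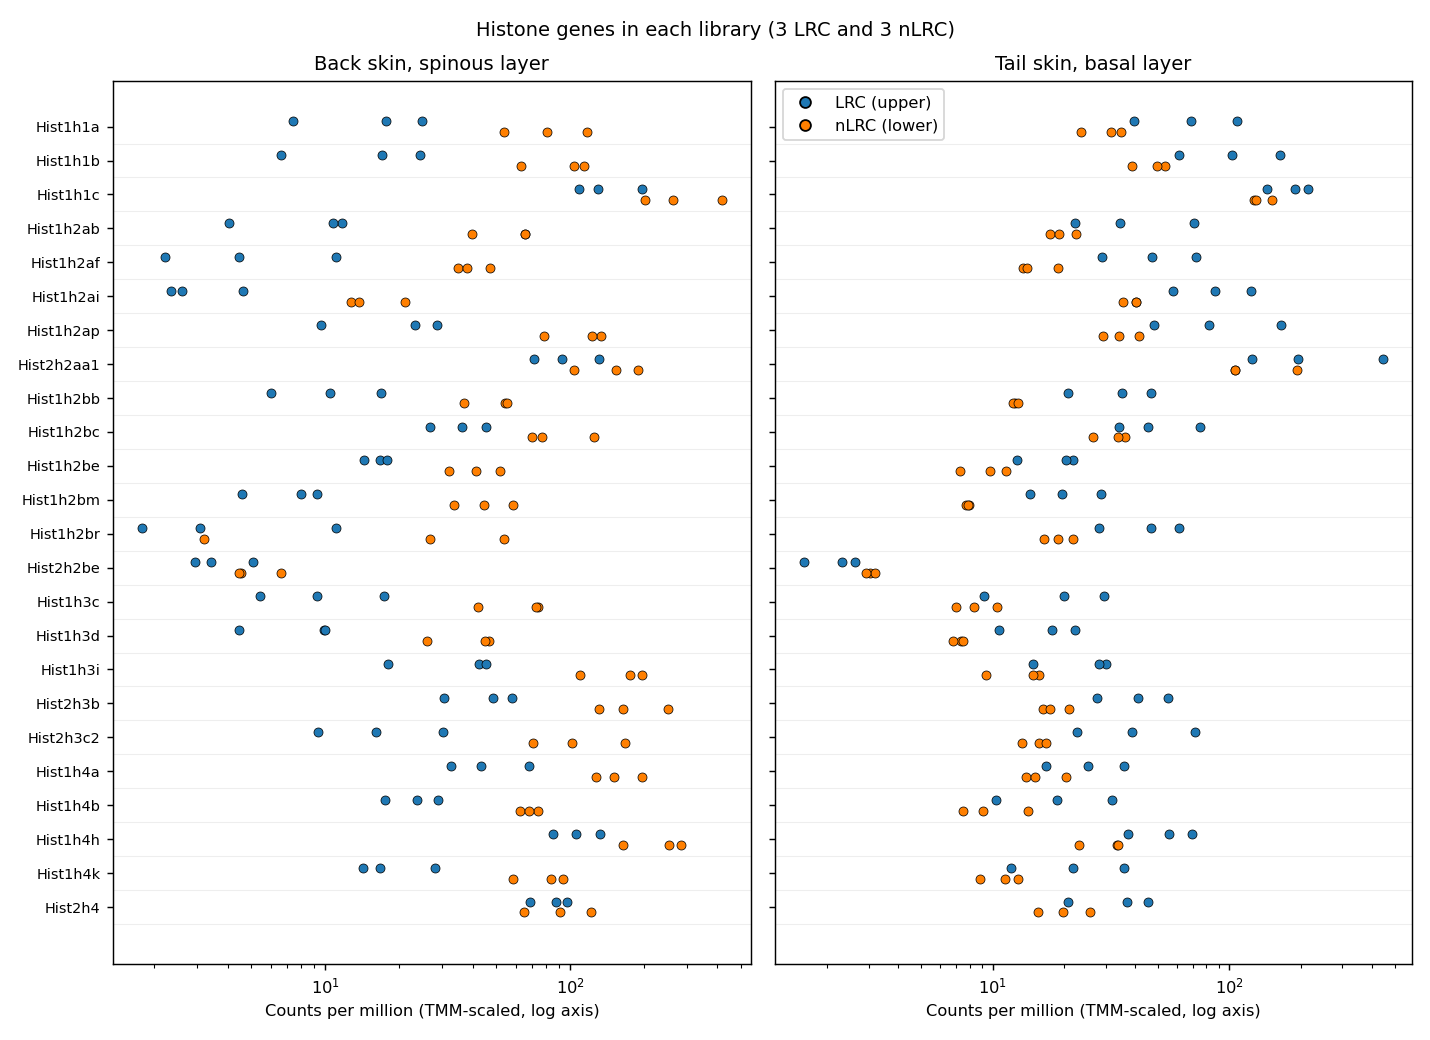
Levels of 24 histone genes (CPM scaled by edgeR's TMM method, log axis) in the 3 LRC libraries (blue, upper row of each gene) and the 3 nLRC libraries (orange, lower row) of the back skin spinous layer (left, fit without back bulge library 2) and of the tail skin basal layer (right). Most genes lie to the left of nLRCs in spinous LRCs and to the right of nLRCs in tail LRCs, with Hist2h2be on or left of nLRCs in both panels.

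Genes outside the family that take part in replication and division were taken from lists of cell-cycle and histone pathway genes. In the fit without back bulge library 2, 26 of 30 mitosis genes fell in spinous LRCs and 1 rose (Ttk, a spindle checkpoint kinase), with a median log2 fold change of −2.11. Mki67, a marker of cycling cells, had 14.6, 30.7 and 41.8 CPM in spinous LRCs, against 154, 311 and 176 CPM in spinous nLRCs. Of 35 DNA replication genes 22 fell, with a median of −0.90, among them Mcm2, a subunit of the replicative helicase, by 1.28. Of 15 histone chaperones 5 fell, among them Asf1b, which delivers H3 and H4, by 1.84. Of 22 genes for histone mRNA processing and decay 2 fell, Cstf2 and Snrpb, and Slbp had a log2 fold change of −0.55 and an adjusted p of 0.0701 (edgeR). Of 11 variant histone genes, which are expressed outside S phase as well, 5 fell and 1 rose. H2afx fell by 1.86 and H2afz by 1.18, and H2afy, encoding macroH2A1, was the one that rose, by 0.77 (adjusted p 0.000311, edgeR).

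Markers of layers and of another cell type moved with this comparison. The 8 sebocyte markers were all detected in both groups and summed to 528 to 673 CPM in spinous LRCs, against 3721 to 8101 CPM in spinous nLRCs, and 7 of the 8 fell in LRCs. Krt1 and Krt10 summed to 9801 to 14931 CPM in spinous LRCs, against 1886 to 3651 CPM in spinous nLRCs, and both rose in LRCs. The 4 basal markers summed to 7897 to 11524 CPM, against 11887 to 16470 CPM. Of the 4 melanocyte markers, 1 was at 0 in every spinous LRC library and 2 fell in LRCs, and their sums were at most 11.7 CPM in spinous LRCs, against 7.49 to 21.5 CPM in spinous nLRCs. The part of these cells in the histone difference was not tested.

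In the back skin basal layer the histone genes did not separate LRCs from nLRCs by the test. With all libraries 0 of 66 genes passed (edgeR), 0 at an unadjusted p under 0.05 and 0 by DESeq2, against 0.223% of all genes called lower. Without back bulge library 2, 0 passed and 1 had an unadjusted p under 0.05, against 0.672% of all genes called lower. The median log2 fold change was −0.34 with and −0.35 without that library, and 64 of 66 genes were below 0 without it. These values have none over all genes beside them, and copies can share reads, so no fall of the family is read from them. In 4 of 66 genes every LRC library lay below every nLRC library, against 8.67% of all genes. Hist1h3d had 17.2, 16.6 and 29.6 CPM in basal LRCs, against 33.3, 33.8 and 32.6 CPM in basal nLRCs (log2 fold change −0.65, SE 0.31, adjusted p 0.698, edgeR). Hist1h4k had 49.7, 46.6 and 70.8 CPM, against 72.6, 82.1 and 83.8 CPM (adjusted p 0.715). In both genes LRC library 3 came nearest to the nLRCs. Hist1h2ai had the smallest p (0.0468 unadjusted, log2 fold change −1.02).

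The difference between the LRC effects of the spinous and basal layers was itself tested. Without back bulge library 2, 20 of 66 histone genes had a lower LRC over nLRC ratio in the spinous than in the basal layer and 0 a higher one, against 4.98% of all genes called in either direction. For Hist1h3c the log2 difference between the effects was −2.27 (SE 0.48, adjusted p 0.0177, edgeR), for Hist1h2ab −2.27 and for Hist1h2bm −2.24. The median over the histone genes was −1.56. With all back skin libraries 0 of 66 passed in edgeR, 0 at an unadjusted p under 0.05, against 0.392% of all genes, at a median of −1.61.

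In the tail skin basal layer 7 of 65 tested histone genes were higher in LRCs than in nLRCs, and none was lower by the test. Hist1h2af, an H2A gene, had 72.1, 29.0 and 47.0 CPM in tail LRCs, against 13.5, 19.0 and 14 CPM in tail nLRCs. The H2B gene Hist1h2bb had 46.7, 20.9 and 35.1 CPM, against 12.4, 12.2 and 12.8 CPM. Hist1h2ai, an H2A gene, had 123, 57.7 and 87.2 CPM, against 40.3, 35.6 and 40.2 CPM. In these genes the LRC libraries spread widely, with library 1 highest and library 2 lowest, and all stood above the nLRC libraries.

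edgeR's quasi-likelihood test with Benjamini-Hochberg adjustment made these 7 calls, against 3.12% of all genes called higher. The genes were Hist1h2af (log2 fold change 1.68, SE 0.32, adjusted p 0.0146), Hist1h2bb (1.45, SE 0.29), Hist1h2ai (1.21, SE 0.25), Hist1h2bm (1.41, SE 0.32), Hist1h2br (1.25, SE 0.29), Hist2h3c2 (1.54, SE 0.37) and Hist1h2bk (1.42, SE 0.34). At an unadjusted p under 0.05 there were 45 genes, and DESeq2 called 24, both without a share over all genes to set beside them. The median was 1.05, against 0.02 over all genes, and 28 of 65 genes had every LRC library above every nLRC library, against 14% of all genes. Samples with the same number deviated together in tail. With the replicate number as a block 28 of 65 histone genes were called, against 13.7% of all genes called in either direction. Without tail bulge library 3, 9 of 67 were called higher, against 2.81% of all genes. With the block as well it was 36, against 12.4% of all genes called in either direction.

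The count of 7 rested on single libraries. It was 1 without LRC library 1, LRC library 3 or nLRC library 2, against 2.23% to 3.25% of all genes called in either direction. Without nLRC library 1 or nLRC library 3 it was 0, against 2.18% and 3.05%. Without LRC library 2 it was 25, against 3.89%. The median log2 fold change lay between 0.63 and 1.31 over these 6 fits. By class the median was 0.87 for H1, 1.11 for H2A, 1.08 for H2B, 1.17 for H3 and 0.84 for H4, so that the H2B median lay between those of H1 and H2A. Hist1h1b had 163, 61.1 and 102 CPM in tail LRCs, against 53.4, 38.9 and 49.5 CPM in tail nLRCs (log2 fold change 1.20, SE 0.40, adjusted p 0.126, edgeR). Hist2h2be was not higher in LRCs, with 2.32, 2.61 and 1.59 CPM, against 3.04, 3.17 and 2.93 CPM (log2 fold change −0.48, adjusted p 0.466, edgeR). It was not alone in this. The H3 gene Hist2h3c1, also with few reads, had 21, 10 and 13 unscaled reads, against 10, 19 and 16, and its groups overlapped. Hist1h1c, at 216, 144 and 190 CPM, against 151, 126 and 130 CPM, and Hist1h2bc, at 74.8, 34.0 and 45.2 CPM, against 36.4, 33.9 and 26.6 CPM, had adjusted p of 0.361 and 0.27.

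Cell-cycle genes moved in part with the histone genes of tail LRCs. Of 30 mitosis genes 4 rose (Aurkb, Prc1, Kif11 and Nusap1, by 1.43 to 1.56 on the log2 scale) at a median of 0.81. Mki67 had 678, 348 and 499 CPM in tail LRCs, against 365, 354 and 351 CPM in tail nLRCs. By edgeR 0 of 35 DNA replication genes passed (median 0.31), and 0 of the variant histone, chaperone and histone mRNA lists. Layer markers differed between these groups too. The 4 basal markers summed to 12351 to 13258 CPM in tail LRCs, against 21623 to 30988 CPM in tail nLRCs. Krt1 and Krt10 summed to 3637 to 4657 CPM, against 2120 to 2350 CPM, the 4 bulge markers to 918 to 1986 CPM, against 260 to 451 CPM, and the sebocyte markers to 200.5 to 275 CPM, against 386 to 775 CPM. Malat1 was at 4413, 6103 and 4667 RPM in tail LRCs, against 1977, 3138 and 4270 RPM in tail nLRCs. The part of these differences in the histone values was not tested.

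**Figure D3:**
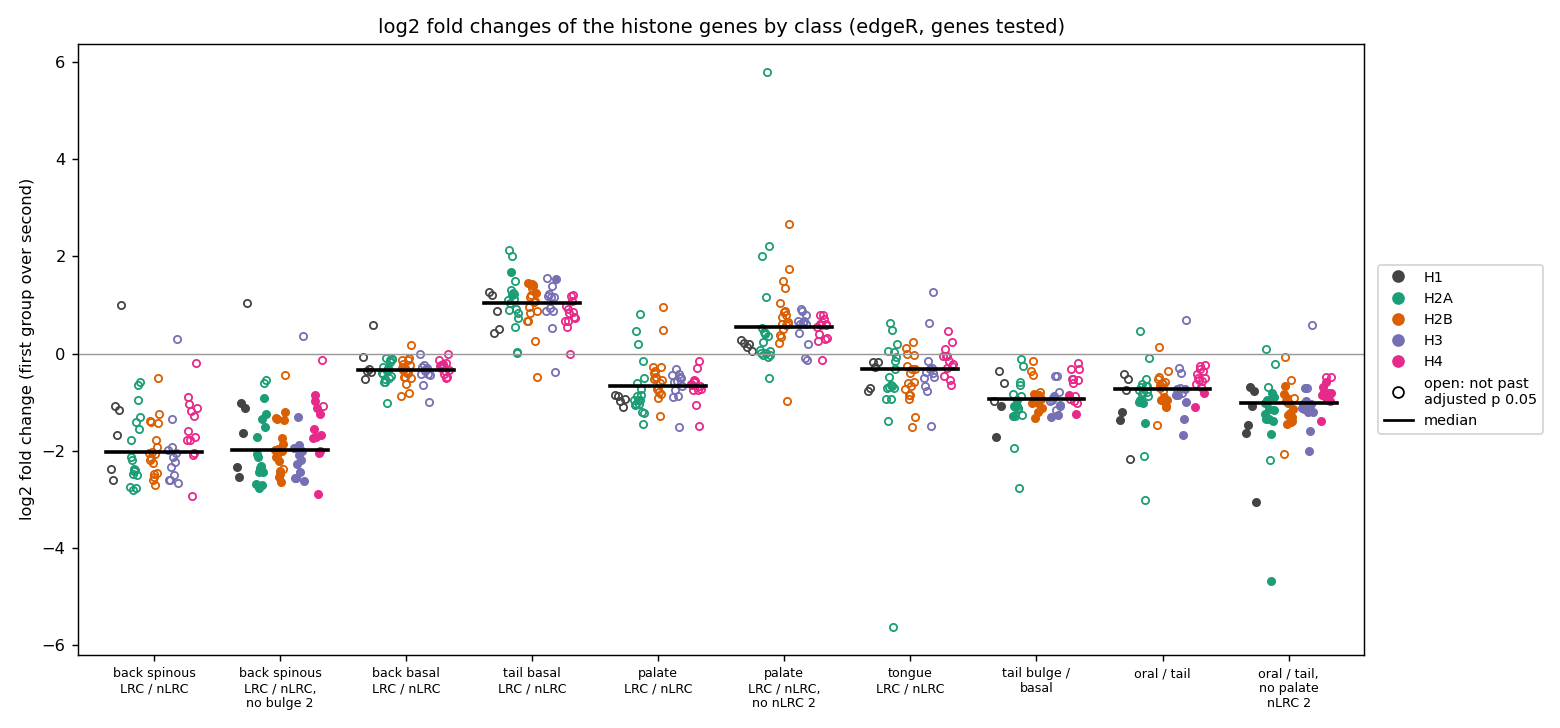
Log2 fold changes (first group over second, edgeR) of the tested histone genes in 7 comparisons, some also without a library that stood apart; colour gives the histone class, filled points passed an adjusted p of 0.05 and bars give the median. Medians lie at −2.03 and −1.98 for spinous LRCs with and without back bulge library 2 in the fit, at −0.34 for back basal LRCs and at 1.05 for tail LRCs, and the palate median changes sign when nLRC library 2 is left out.

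Genes of an H2A and H2B pair often stand back to back and share the sequence between their starts. The 69 genes hold 14 such divergent pairs, 13 of H2A with H2B and 1 of H2B with H3, with 175 to 659 bases between the annotated starts. In spinous LRCs both genes of all 11 pairs with both tested had log2 fold changes below 0, and the 2 differed by a median of 0.22 and at most 0.98. In tail LRCs both were above 0 in 11 of 12 pairs, and the 2 differed by a median of 0.21 and at most 1.31, in Hist1h2bf (0.83) and Hist1h2ad (2.14). The pair with opposite signs was Hist2h2ac with Hist2h2be, at 0.74 and −0.48 in tail and −1.24 and −0.44 in the spinous layer. Their starts lie 238 bases apart. Most of the tested histone genes, paired or not, went the same way in each comparison, so the shared signs are not particular to pairs. The difference between genes that are not paired was not computed, so the medians within pairs have no value to be set against.

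**Figure D4:**
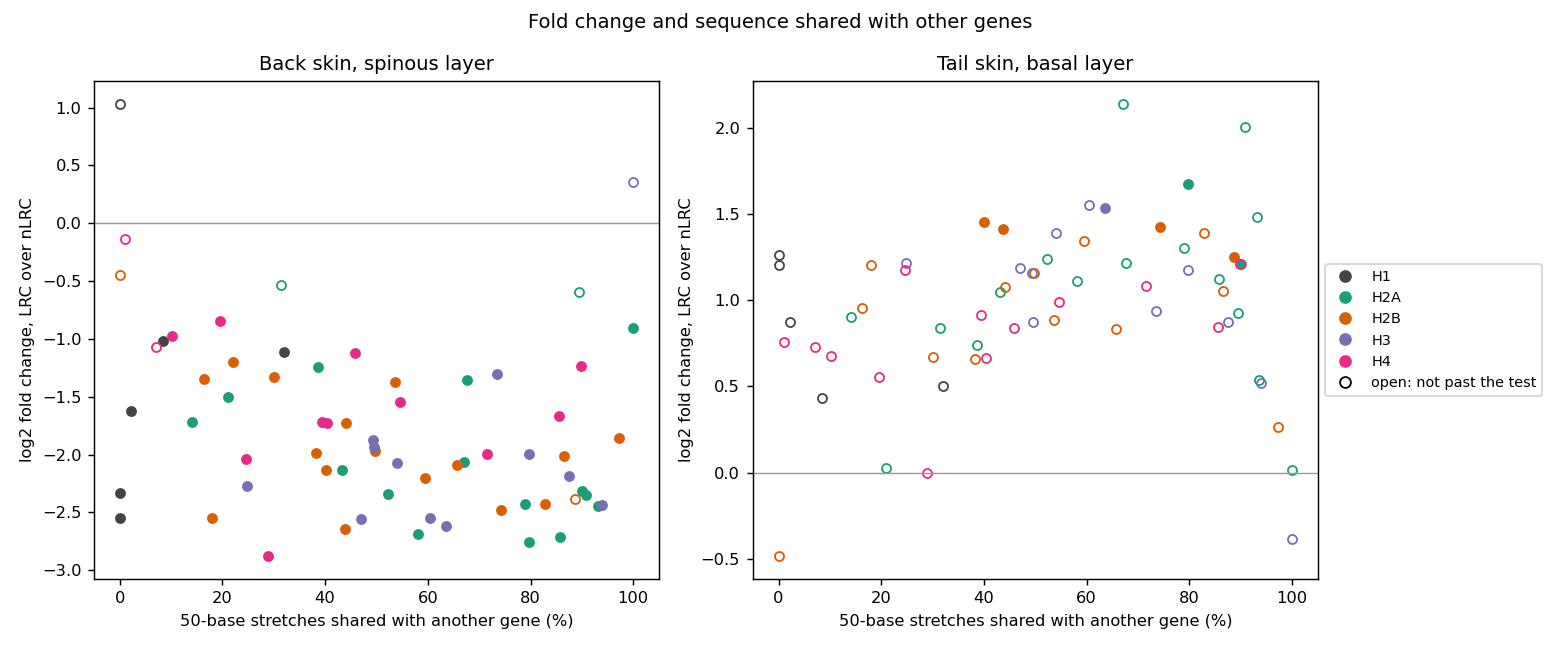
Log2 fold change of LRCs over nLRCs against the share of 50-base stretches that a histone transcript has in common with another gene (percent), for the back skin spinous layer (left, fit without back bulge library 2) and the tail basal layer (right); filled points passed an adjusted p of 0.05 in edgeR. Genes at the left edge of each panel share little with other genes, among them Hist1h1b at −2.55 in the spinous layer and at 1.20 in tail, while Hist2h2be at 0% lies nearer to 0 or below it.

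In the palate the direction of the histone genes depended on 1 library. With all libraries 0 of 65 genes passed (edgeR), with 5 at an unadjusted p under 0.05 and 0 by DESeq2, against 0% of all genes called in either direction. The median log2 fold change of LRCs over nLRCs was −0.67. Without nLRC library 2, which leaves 1 palate nLRC library assumed to vary like the other groups, it was 0.54, again with 0 of 66 genes called (14 at an unadjusted p under 0.05), against 0% of all genes called higher. Both LRC libraries were then above the nLRC library for 51 of 66 genes, against 28.8% of all genes. Without nLRC library 1, which leaves the library that stood apart as the one palate nLRC library, the median was −1.32 and 40 of 66 genes were called, against 9.73% of all genes called in either direction. On log2(TPM + 1) with limma and all libraries the median was −0.05. Hist2h2aa1, for example, had 104 and 100.3 CPM in palate LRCs, against 107 and 365 CPM in palate nLRCs. RPM in nLRC library 2 were higher than in nLRC library 1 by a median ratio of 2.17 over the histone genes, against 0.605 over all genes. The 3 endothelial markers summed to 3.92 to 15.2 CPM in palate LRCs, against 20.2 to 33.6 CPM in palate nLRCs, and their part in the result was not tested.

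In the tongue 34 of 65 histone genes had both LRC libraries below both nLRC libraries, against 20.2% of all genes. None of the 65 passed edgeR's test or DESeq2's, with 0 at an unadjusted p under 0.05 by edgeR, against 0.00670% of all genes called in either direction. The median was −0.32. Hist1h2ab had 8.96 and 8.11 CPM in tongue LRCs, against 17.9 and 14.8 CPM in tongue nLRCs (log2 fold change −0.94, SE 0.44, unadjusted p 0.0633). Hist1h2ae had 3.76 and 2.23 CPM, against 8.29 and 7.50 CPM. Hist1h2ah went the other way, with 5.49 and 6.53 CPM, against 3.35 and 4.40 CPM. Without palate nLRC library 2 in the oral fit, 0 of 66 passed, with 17 at an unadjusted p under 0.05, against 0.198% of all genes called lower. The 3 endothelial markers summed to 2.02 to 4.80 CPM in tongue LRCs, against 24.96 to 33.2 CPM in tongue nLRCs, and their part was not tested.

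The LRC effects of tail and of the oral tissues (palate and tongue averaged) differed for 1 of 67 histone genes, Hist1h2af, against 1.40% of all genes called in either direction. Its log2 difference between the effects, tail minus oral, was 2.34 (SE 0.53, adjusted p 0.0491, edgeR). Without palate nLRC library 2 it was 1.79 (adjusted p 0.0449), again the only histone gene called, against 1.68% of all genes. The median difference over the histone genes was 1.55 with and 0.90 without that library, and the doxycycline chase also differed between these tissues.

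Comparisons between layers and cell types also depended on the libraries that stood apart. Between the spinous and basal layers of back skin (LRCs and nLRCs averaged), 0 of 66 histone genes passed in edgeR with all libraries, 1 at an unadjusted p under 0.05, and 1 by DESeq2, against 4.18% of all genes called lower. With the replicate number as a block and all libraries 0 passed, against 12.3% of all genes in either direction. Without back bulge library 2, 12 fell, against 6.82% of all genes (31 with the replicate number as a block, against 20.5% in either direction). The median was −0.52 in both fits. Hist1h4a, an H4 gene, had 32.5, 43.2 and 67.8 CPM in spinous LRCs and 127, 197 and 151 CPM in spinous nLRCs, against 138, 114 and 201 CPM in basal LRCs and 171, 162 and 168 CPM in basal nLRCs. Spinous nLRCs thus overlapped the basal groups and spinous LRCs lay below them, and the average of the layer fell by 0.87 on the log2 scale (SE 0.19, adjusted p 0.00494, edgeR). Hist1h4k, Hist1h4b, Hist1h2bm and Hist1h3i fell by 0.76, 0.63, 0.89 and 0.84. Of the 35 DNA replication genes 29 fell, at a median of −1.02. The 4 basal markers all fell and 7 of 8 sebocyte markers rose in the spinous layer, and their part was not tested.

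Granular cells were set against the average of the spinous groups. With all libraries 0 of 66 histone genes passed in edgeR, 0 at an unadjusted p under 0.05 and 0 by DESeq2, against 1.54% of all genes called lower. With the replicate number as a block and all libraries 0 passed, against 7.22% of all genes in either direction. Without back bulge library 2, 17 fell, against 3.73% of all genes (37 with the block, against 15.9% in either direction). The medians were −0.98 and −0.95. Hist1h3i had 29.7, 22.8 and 13.4 CPM in granular cells, against 18.1, 42.5 and 45.5 CPM in spinous LRCs and 110, 196 and 175 CPM in spinous nLRCs, and fell by 1.77 on the log2 scale (SE 0.34, adjusted p 0.00357, edgeR). Granular cells overlapped spinous LRCs and lay below spinous nLRCs. Hist1h2bp, Hist1h4k, Hist1h4a, Hist1h3c and Hist2h3b fell by 1.55, 1.03, 1.07, 1.27 and 1.12, also with granular levels in or near the range of spinous LRCs. The 4 basal markers fell in granular cells too, as did 19 of 30 mitosis and 17 of 35 replication genes, and 1 mitosis gene rose.

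Back bulge cells were called higher than the back basal layer for 64 of 66 histone genes, against 15.7% of all genes, at a median of 3.99, and this rested on back bulge library 2. Hist1h3c had 49.3, 2426 and 55.0 CPM in back bulge cells, against 36.5, 29.0 and 50.6 CPM in basal LRCs and 36.5, 49.0 and 55.6 CPM in basal nLRCs. Bulge library 2 lay far outside the basal range and bulge libraries 1 and 3 within it. Without that library 0 of 66 were called higher and 1 lower, against 14.4% of all genes called higher and 10.9% called lower, at a median of −0.13. The lower gene was Hist2h2be, with 1.44 and 1.33 CPM in bulge cells, against 2.72, 3.47 and 3.36 CPM in basal LRCs and 2.49, 2.82 and 3.15 CPM in basal nLRCs (log2 fold change −1.11, SE 0.33, adjusted p 0.0197, edgeR). It was also the 1 gene called lower with all libraries, against 10.6% of all genes. With all libraries DESeq2 passed 9 histone genes and limma on log2(TPM + 1) 4. The 3 endothelial markers summed to 29.2 to 258 CPM in back bulge cells, against at most 1.97 CPM in the basal groups. The 4 fibroblast markers summed to 4.40 to 29.6 CPM, against at most 1.40 CPM, and the 4 melanocyte markers to 11.5 to 144 CPM, against 5.28 to 13.5 CPM. The part of these cells in the result was not tested.

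The excess of back bulge library 2 held for most histone genes. Relative to the mean of bulge libraries 1 and 3, RPM were over 4 times higher for 64 of 67 histone genes with enough reads, with a median ratio of 22.2, against a median of 0.317 and 1.5% of genes over 4 among all genes. The class medians were 18.3 for H1, 23.9 for H2A, 23.3 for H2B, 21.3 for H3 and 17.6 for H4. The other 3 genes were low, Hist2h3c1 at a ratio of 0.307, Hist2h2be at 0.396 and Hist1h2ao at 0.526. The polyadenylating genes Hist1h1c and Hist1h2bc were at 12.3 and 16.1. In the same library Malat1 was below and Rn7s1 above every other back skin library, and Mki67 was at 263 RPM, against 95 and 131 RPM in bulge libraries 1 and 3. The part of RNA composition or of cycling cells in this excess was not tested.

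**Figure D5:**
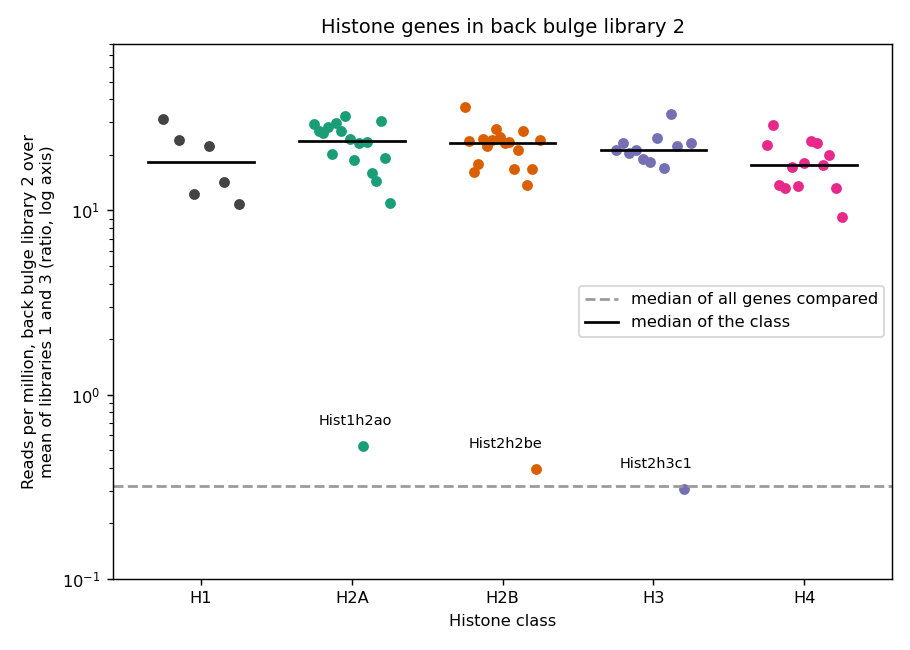
RPM of each histone gene in back bulge library 2 divided by the mean of back bulge libraries 1 and 3 (ratio, log axis), by histone class, with the median of each class (bars) and of all genes (dashed line at 0.317). All genes but Hist2h3c1, Hist2h2be and Hist1h2ao lie far above the median of all genes, at class medians between 17.6 and 23.9.

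Tail bulge cells were set against the tail basal layer (LRCs and nLRCs averaged). Their share of histone reads lay below every tail LRC library, while bulge libraries 1 and 2 lay within the range of tail nLRCs. Hist1h1b had 31.0, 23.6 and 9.93 CPM in tail bulge cells, against 163, 61.1 and 102 CPM in tail LRCs and 53.4, 38.9 and 49.5 CPM in tail nLRCs, with all bulge libraries below all basal libraries. It fell by 1.71 on the log2 scale (SE 0.38, adjusted p 0.00819, edgeR). In all 19 of 65 genes fell and 0 rose, against 10.4% of all genes called lower, at a median of −0.93. In 10 genes every bulge library lay below every basal library, against 10.1% of all genes. Hist1h2ai, Hist1h3i, Hist2h2bb, Hist1h2bn and Hist1h2bb fell by 0.95, 1.26, 0.94, 1.20 and 1.02. Bulge library 3 was the lowest, with a median ratio of 0.440 over the histone genes to the mean of bulge libraries 1 and 2, against 0.799 over all genes. Without it 1 of 67 genes fell, Hist1h1b, by 1.39 (adjusted p 0.0232, edgeR), against 6.66% of all genes, at a median of −0.73. With the replicate number as a block 34 of 65 genes fell, against 34.1% of all genes called in either direction, and 10 of 67 without bulge library 3, against 22.6%. Bulge libraries deviated with the nLRC library of the same number in all 3 pairs and with the LRC library in 2 of 3. The count was 38 without LRC library 2, against 25% of all genes called in either direction, 10 without bulge library 2 or LRC library 3, and 9 without nLRC library 1 or nLRC library 3. Of the mitosis genes 24 of 30 and of the replication genes 15 of 35 fell with all libraries, Mki67 by 2.31. The 3 endothelial markers summed to 66.1 to 106 CPM in bulge cells, against 13.8 to 20.8 CPM in tail LRCs and 20.1 to 23.8 CPM in tail nLRCs. The 4 fibroblast markers summed to 11 to 25.6 CPM in bulge cells, against 0.531 to 3.04 CPM in tail LRCs and 0.280 to 1.04 CPM in tail nLRCs. The part of these cells in the result was not tested.

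Between the oral tissues, tongue had lower levels than palate for 3 of 65 histone genes, against 4.71% of all genes, a share close to the background. The 3 were Hist1h2ah, Hist1h2ag and Hist1h1a. Hist1h1a had 10.0 and 8.02 CPM in tongue LRCs and 18.2 and 12.8 CPM in tongue nLRCs, against 21.1 and 24.0 CPM in palate LRCs and 18.3 and 64.1 CPM in palate nLRCs (log2 fold change −1.36, SE 0.34, adjusted p 0.0385, edgeR). All 4 tongue libraries lay below the 4 palate libraries, by little in the case of tongue nLRC library 1. Without palate nLRC library 2, 5 of 66 genes fell, against 4.67% of all genes, and the median moved to −0.24, against −0.89 with it. Without palate nLRC library 1, so that palate nLRCs were represented by the library that stood apart, the count was 55 of 66, against 20.7% of all genes called in either direction. It was 1 without either palate LRC library, against 5.57% and 6.23% of all genes, and 0 without any 1 of the 4 tongue libraries, against 4.22% to 5.41%.

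The oral basal layers (palate and tongue averaged) were set against the tail basal layer, and the count of histone genes called lower depended on the fit. Hist1h1a had 20.9 and 24.1 CPM in palate LRCs, 18.6 and 64.0 CPM in palate nLRCs, 10.2 and 8.13 CPM in tongue LRCs and 18.3 and 12.9 CPM in tongue nLRCs, against 115, 40.1 and 71.1 CPM in tail LRCs and 36.2, 24.7 and 33.5 CPM in tail nLRCs. Palate nLRC library 2 was the one oral library inside the tail range. The gene fell by 1.36 on the log2 scale (SE 0.27, adjusted p 0.00196, edgeR). In all 20 of 67 genes fell and 0 rose, against 16.5% of all genes called lower, at a median of −0.72. With the replicate number as a block 14 of 67 fell, against 23.2% of all genes called in either direction, which is not above that share. Hist1h3i, Hist1h2br, Hist2h2bb, Hist1h1b and Hist1h2an fell by 1.35, 1.08, 1.10, 1.21 and 1.42.

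Without palate nLRC library 2, 53 of 67 histone genes were lower in the oral tissues than in tail, against 14.2% of all genes, at a median of −1.02. The smallest p was that of Hist2h2bb, an H2B gene, which fell by 1.38 (SE 0.15, adjusted p 1.63e-05, edgeR). Leaving out other single libraries, the count was 38 without tail LRC library 2, against 30.1% of all genes called in either direction, and 13 without tail LRC library 1, tail nLRC library 3, palate LRC library 1, tongue LRC library 2 or tongue nLRC library 2, against 22.6% to 30.9%. The counts of 13 were not above those shares. Of 35 replication genes 22 fell and of 30 mitosis genes 2 fell and 1 rose. Slbp fell by 0.46 (adjusted p 0.00916, edgeR). The spinous markers Krt1 and Krt10 summed to 10.2 to 60.2 CPM in the oral libraries, against 2120 to 4657 CPM in the tail basal libraries. Sebocyte markers were at 108 to 198 CPM, against 200.5 to 775 CPM. Doxycycline ran for 10 days in oral tissues and 2 weeks in skin, so tissue and length of chase cannot be told apart.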

How the data were processed

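Each library has a table of genes with 3 measures. The count ("Total gene reads") holds raw whole reads per gene as the authors deposited them, TPM and RPKM are the authors' normalised values, per the file headers, and RPKM was not used beyond comparing gene lengths. The build is mm10, per the submitters' processing notes; the aligner, the counter and the treatment of reads with several positions are not named there. Counts were fitted over all genes with edgeR 4.0.16 (quasi-likelihood test, TMM, filterByExpr with a minimum count of 10 and a minimum total of 15, Benjamini-Hochberg adjustment, threshold 0.05) in R 4.3.3, separately for back skin, tail, oral tissues, and oral tissues with tail. Printed CPM are counts scaled by TMM; RPM are unscaled. Alternatives were DESeq2 1.42.0, limma 3.58.1 on log2(TPM + 1) with a TPM filter of 1, median-of-ratios scaling, no low-count filter, the compared groups alone, the replicate block and leaving out each library; the scripts were tested on simulated data. Fits without back bulge library 2, palate nLRC library 2 or tail bulge library 3 were added after seeing the data. Tables were handled with Python 3.11.15 and pandas 2.3.3.

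Genes named in the text are the 10 with the highest mean TPM, in each comparison up to 6 past the test per direction with the smallest p (otherwise the 3 smallest), the testis-type genes Hist1h1t, Hist1h2aa and Hist1h2ba, the polyadenylating genes Hist1h1c, Hist1h2bc and Hist2h2be, and up to 4 of each other list. Genes outside that rule were chosen after their values were seen. In the spinous comparison they are the H1 genes, Hist2h4 and the genes that did not pass. In tail they are Hist1h1b, Hist2h2ac, Hist2h3c1, Hist1h2bf and Hist1h2ad. The histone genes and the lists were chosen with earlier results of these data known.

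Same-numbered libraries deviated together (correlation of deviations from the group means over 0.1 in every pair) for LRCs and nLRCs of the back basal (0.233 to 0.322), spinous (0.163 to 0.291) and tail basal layers (0.326 to 0.585), so block values stand beside those results where they move a count. Depth limits genes with few reads: between 56 and 67 of the 69 genes had 10 or more reads in a library.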

Additional observations from a re-analysis of the deposited data

Results flagged for a closer look

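These results are listed because a test of the difference between 2 label-retention effects called histone genes. Without back bulge library 2, 20 of 66 histone genes had a lower LRC over nLRC ratio in the spinous than in the basal layer of back skin (edgeR), against 4.98% of all genes called in either direction. With all back skin libraries 0 of 66 passed, 0 at an unadjusted p under 0.05, against 0.392% of all genes. Between tail and the oral tissues 1 of 67 histone genes, Hist1h2af, had a higher LRC over nLRC ratio in tail, against 1.40% of all genes, and it was again the 1 gene called without palate nLRC library 2, against 1.68%. At an unadjusted p under 0.05 there were 46 with and 29 without that library, counts that have no share over all genes beside them. Both counts past the adjusted test are close to the background share, so no difference between these tissues is read for the family from them.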

How the results depend on the processing

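Counts of histone genes past the test moved by more than 1.5 times with many settings. In spinous LRCs (0 with all libraries) the count was 21 with no low-count filter, 12 with limma on log2(TPM + 1), 57 with the compared groups alone, 58 without back bulge library 2 and 60 without it and with the replicate block. Spinous against basal (0) gave 1 with DESeq2, 14 with the compared groups, 12 without back bulge library 2 and 31 with the block as well, and granular against spinous (0) gave 12, 17 and 37 under the last 3 of these settings. Back bulge against basal (65) gave 9 with DESeq2, 4 with limma, 62 with the block, and 3 with the block and without bulge library 2; the log2 fold changes of Hist1h2ba and Hist1h1c reversed to −1.15 and −0.0088 without bulge library 2 and to −1.02 and −0.064 with the block as well, and ran up to 4.22 and 3.86 without another library. In tail LRCs (7) the count was 50 with no filter, 28 with the block, 24 with DESeq2, 37 with limma and 36 with the block and without tail bulge library 3, and for tail bulge (19) these were 47, 34, 34, 45 and 10. Palate gave 8 and tongue 1 with no filter. Tongue against palate (3) gave 46 with no filter, 5 with the block, 25 with DESeq2 and 1 with limma; oral against tail (20) gave 54, 14, 33 and 56, and 53 with the block and without palate nLRC library 2. Leaving out each library of the compared groups in turn gave 0 in each fit for LRCs of back basal, spinous and tongue and for both layer comparisons, 0 to 40 for palate, 0 to 25 for tail LRCs, 1 to 66 for back bulge, 1 to 38 for tail bulge, 0 to 55 for tongue against palate and 13 to 53 for oral against tail. Median-of-ratios scaling changed none of the 11 counts by over 1.5 times. The cause of these moves was not tested, beyond the libraries named. With the block, 30.8% of all genes were called in either direction for back bulge, 11.5% for tongue against palate and 23.2% for oral against tail. For back bulge it was 32.6% without bulge library 2 as well, and the 3 histone genes called there are below that share. Counts at an unadjusted p, by DESeq2, limma, no filter or the compared groups alone have no such share beside them. They are not read as results for the family, and neither are medians given without a median over all genes. Correlations of same-numbered libraries did not exceed 0.1 in every pair for back bulge with basal cells (0.0364 to 0.233), tail bulge with LRCs (−0.0436 to 0.426) and tongue (0.0471); they did for tail bulge with nLRCs (0.125 to 0.404), and palate, with 2 pairs, had 0.283. Of single-gene results under settings other than leaving out 1 library in turn, 517 kept direction and side of the threshold, 49 gained and 30 lost the call and 2 reversed.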
